A study of Mus musculus with 20 samples.

Results

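The nuclear genes of the mitochondrial respiratory chain were followed through a time course of Ad-VEGF-A164 in mouse flank tissue. Members were all genes whose symbol, on probe sets annotated to a single symbol, marks a structural subunit of complex I (Nduf), II (Sdh), III (Uqcr), IV (Cox) or V (Atp5). The cytochrome oxidase isoforms Cox6a2, Cox7a1 and Cox8b, which mark striated muscle and brown fat, were kept apart. This gave 78 of the 18194 genes on the arrays, 35 of complex I, 4 of complex II, 8 of complex III, 14 of complex IV and 17 of complex V, and each gene was read by its probe set of highest mean signal among the 160 probe sets of the members. Ad-VEGF-A164 is an adenoviral vector that carries VEGF-A164, an isoform of a growth factor for blood vessels, into cells. Control was flank tissue of day 0 (5 arrays, A to E), and the vector groups were day 5 (4 arrays, B to E), day 20 (5 arrays, A to E) and day 60 (5 arrays, A to E). Strain, sex, age and vector dose were not found in the sources used here. Control was of day 0 only and no empty vector is named, so VEGF-A, the vector, its delivery and the time of harvest cannot be told apart. Whether each array stands for its own animal is not labelled, so the p-values reflect the spread among these arrays alone, and that spread may be technical. One further array was titled as day 5 A but labelled as a day 0 control, and it entered no comparison.

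The respiratory chain passes electrons from NADH (complex I) and succinate (complex II) through ubiquinone to complex III and, by cytochrome c, to oxygen at complex IV. Complexes I, III and IV pump protons as they do so, and complex V, the ATP synthase, makes ATP from the proton gradient. Most subunits are nuclear genes and are made at high levels in oxidative muscle fibres and brown fat, and the few subunits encoded in mitochondrial DNA are not among the members. Complexes were assigned by symbol, so Ndufa4 is counted here with complex I although its protein is found in complex IV.

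Of the 78 members, 75 had a mean signal of at least 300 and were tested. Ndufb4, Cox6b2 and Cox7b2 were not, with mean signals of 243, 291.5 and 67.3. Ndufa4l2 (308.8) and Ndufb1 (397) lay just above that minimum. The probe sets of 13 members end in _s_at and those of 9 in _x_at, endings that Affymetrix gives to sets that can also read similar transcripts, and these members are therefore less certain. Signals of different probe sets are not comparable as levels, so members are compared by their changes, on the log2(signal + 100) scale. Values on single arrays are listed in the order of their letters, B to E for day 5 and A to E otherwise, and errors of log2 changes are SEs.

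Several features of the arrays touch all members. On the main Vegfa probe set the signal ran between 66.5 and 467 in control, 3927.5 and 9410.0 on day 5, 7127.5 and 13514 on day 20, and 219 and 1076 on day 60, while a second Vegfa probe set moved the opposite way. Control A was the highest control array in 54 of the 75 tested members and control C the lowest in 59. Day 60 C was the highest of its group in 64 members and day 60 B the lowest in 45, and on day 20 array E was highest in 47 and array B lowest in 54. The ratio of 3' to 5' Actb signal, which grows as RNA breaks down, had means with SD of 7.10 ± 1.89 for the 5 control arrays, 4.82 ± 1.96 for the 4 of day 5, 4.48 ± 1.84 for the 5 of day 20 and 8.82 ± 4.24 for the 5 of day 60. With this ratio as a covariate 27 members fell on day 5, against 32 without it, and other counts with it stand beside the results they move.

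On day 5 the subunits of the chain were mostly lower than in control. Of the 75 tested members 32 fell (42.7%, against 17.5% of all tested genes), and 42 did not pass limma's test at an adjusted p under 0.05. The other member, Ndufa4l2, was higher (as were 16.8% of all tested genes), but it passed the minimum signal through its day 5 and day 20 arrays, so its call is a description and at a minimum of 1000 no member was higher. The median log2 change was -0.50, against -0.07 over all genes tested, and 72 of the 75 values were below 0. In 30 members the 4 day 5 arrays did not reach the lowest of the 5 control arrays, and 26 of these were among the called. How many of all tested genes separated in this way was not counted, so these 2 counts are a description. In bulk tissue, fewer cells rich in mitochondria and less of these RNAs per cell cannot be told apart. Without control A the count that fell was 20 and without day 5 B it was 21. With the array titled day 5 A counted as a control it was 10, against 38 with that array counted as day 5. Its placing as a control ended the calls of Ndufb11, Sdha, Uqcrfs1, Cox4i1, Cox6b1, Atp5e and Atp5pb. The share of all tested genes that fell ran between 9.33% and 20.05% over the alternatives that left no single array out. The array titled day 5 A gave 11111 on the main Vegfa probe set, against at most 467 in control.

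**Figure D1:**
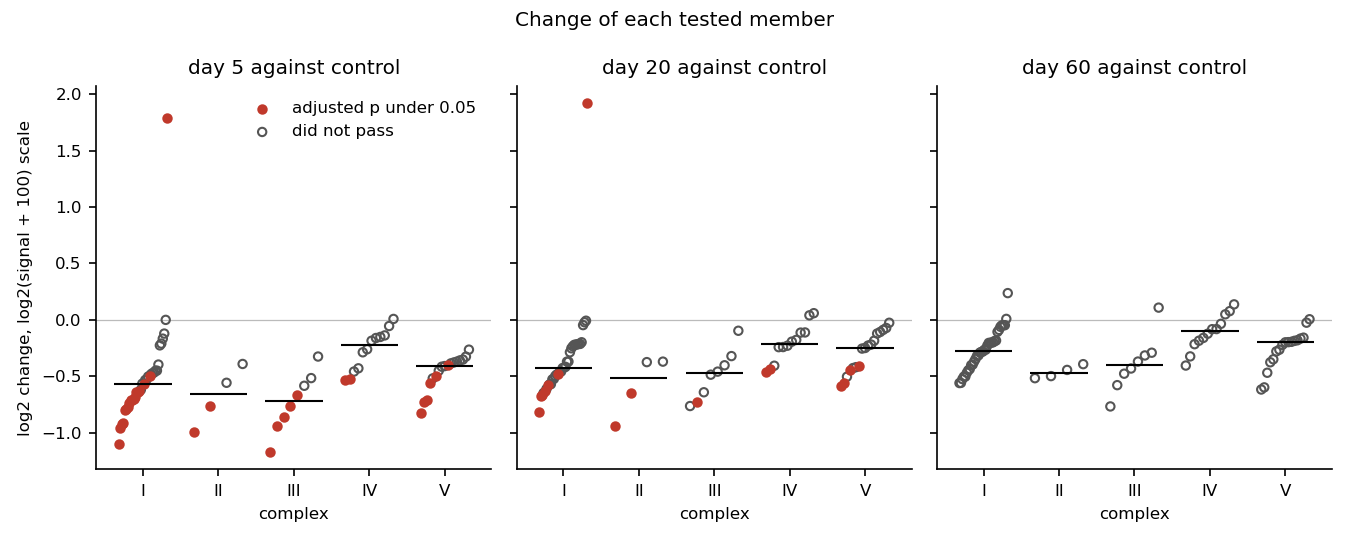
Log2 change of each of the 75 tested members against control on day 5, day 20 and day 60, on the log2(signal + 100) scale, with members sorted within complexes I to V and a line at each complex's median. Filled points passed an adjusted p under 0.05. On day 5 the medians were -0.56 (I), -0.66 (II), -0.71 (III), -0.22 (IV) and -0.41 (V). Ndufa4l2 was the filled point above 0 on day 5 and day 20, and its call is a description.

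On day 5, 5 of 8 subunits of complex III fell (62.5%, median log2 change -0.71), 17 of 34 of complex I (-0.56), 2 of 4 of complex II (-0.66) and 6 of 17 of complex V (35.3%, -0.41). In complex IV 2 of 12 fell (16.7%, -0.22), a share near the 17.5% of all tested genes. Averaged over its members, complex III lay -0.73 ± 0.10 from the control mean on the log2 scale on day 5 (SD, n = 4 arrays), against a control spread of ± 0.38 (n = 5). Complex II lay at -0.67 ± 0.12, complex I at -0.50 ± 0.10, complex V at -0.47 ± 0.11 and complex IV at -0.26 ± 0.02 on day 5, with control SDs of 0.31, 0.26, 0.22 and 0.17. In every complex the highest day 5 array lay below the lowest control array. The gap was narrow in complex V, where day 5 D lay at -0.36 and control C at -0.34, and widest in complex II, where day 5 C lay at -0.53 and control B at -0.27. The differences between complexes were not tested.

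**Figure D2:**
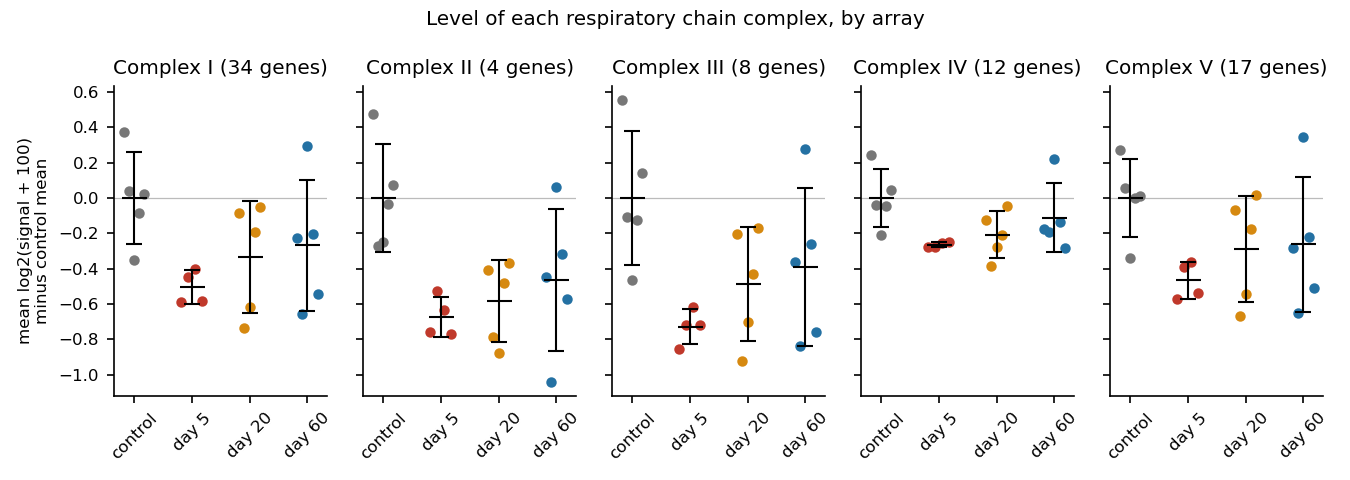
Mean log2(signal + 100) of the tested members of each complex, minus the mean of the 5 control arrays, with 1 point per array and bars for the group mean and SD. Day 5 arrays lay below every control array in all 5 complexes, complex IV had the mean nearest to 0 (-0.26 ± 0.02 on day 5), and day 60 arrays were spread from -0.66 to 0.30 in complex I.

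Complex I, the NADH dehydrogenase, has a matrix arm that takes electrons from NADH and a membrane arm that pumps protons. Its lowest member on day 5 was Ndufa5, an accessory subunit of the matrix arm. Ndufa5 gave signals of 20276, 14076, 13966, 19447 and 18105 in control, 6822, 7613, 9262 and 8066 on day 5, 11234, 6365, 6441, 12795 and 13993 on day 20 and 17085, 11133, 17476, 16607 and 8389 on day 60. All 4 day 5 arrays lay under all 5 control arrays, and Ndufa5 fell 2.13-fold on day 5 (log2 change of -1.09 with SE 0.25, adjusted p = 0.00224 in limma). The member of highest mean signal was Ndufb11, a membrane arm subunit. Ndufb11 gave signals of 56194, 58517, 40171, 45997 and 49063 in control, 36022, 33221, 34471 and 36766 on day 5, 45925, 33195, 38776, 42903 and 56248 on day 20 and 51974, 39824, 61170.0, 44495 and 44977 on day 60. It fell 1.41-fold on day 5 (log2 change of -0.50 with SE 0.15, adjusted p = 0.0168 in limma) with no overlap, while its day 20 and day 60 arrays overlapped control.

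The core subunits of complex I, most of which hold the flavin or iron-sulphur clusters, were grouped after their values were seen. Of 6 such members 5 fell on day 5 (83.3%, against 17.5% of all tested genes). Each of the 5 had no overlap with control, a description, since separation was not counted over all tested genes. On day 20, 1 of 6 fell (16.7%, against 14.5% of all tested genes). Ndufs7, which carries the last cluster before ubiquinone, averaged 10650.1 ± 1897 on day 5 and 20283 ± 3563 in control (SD, n = 4 and 5) and fell 1.89-fold (log2 change of -0.92 with SE 0.23, adjusted p = 0.00508 in limma). Ndufs1, the subunit with several clusters, fell 1.88-fold, Ndufs3 1.71-fold, the flavin subunit Ndufv1 1.64-fold and its partner Ndufv2 1.62-fold (limma adjusted p = 0.0122, 0.0305, 0.0145 and 0.00697). The exception was Ndufs8 with -0.12 ± 0.17 (limma adjusted p = 0.611). Among the accessory subunits of the membrane arm, Ndufb3 averaged 6994 ± 785 on day 5 and 13835 ± 2706 in control (SD, n = 4 and 5) and fell 1.94-fold (log2 change of -0.96 with SE 0.21, adjusted p = 0.00157 in limma), the lowest adjusted p of any member that fell. Ndufb6, Ndufb7, Ndufb8, Ndufb9 and Ndufb10 also fell, by log2 changes between -0.56 (Ndufb7) and -0.79 (Ndufb8). A second Ndufb8 probe set had a log2 change of -0.03 on day 5, while second sets of Ndufb6, Ndufb7 and Ndufb9 had -0.53, -0.43 and -0.78. Ndufb5 (-0.53) and Ndufb2 (-0.50) did not pass.

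Complex II, succinate dehydrogenase, is shared with the tricarboxylic acid cycle. Sdha, its flavin subunit and the site of succinate oxidation, had the lowest change of the complex. Sdha gave signals of 32572, 15468, 15709.9, 18507 and 27379.6 in control, 7322, 11758, 11724 and 11986 on day 5, 12010.1, 8753, 7799.8, 10766 and 17116 on day 20 and 18512, 7472, 18851, 18311 and 13909 on day 60. On day 5 it fell 1.99-fold with no overlap (log2 change of -0.99 with SE 0.29, adjusted p = 0.0125 in limma), but day 5 B lay far below the other day 5 arrays and without it the adjusted p was 0.0543. Sdhb, the iron-sulphur subunit and the member of highest signal in the complex, did not pass. Sdhb gave signals of 34572, 22421, 17025, 21578 and 24304 in control, 14937, 17444, 16309 and 14818 on day 5, 21658, 12724, 14189.6, 18749.9 and 25721 on day 20 and 14200.3, 10667, 32754, 18143 and 16449 on day 60. Its log2 change on day 5 was -0.56 ± 0.26 (limma adjusted p = 0.108). Of the membrane anchors, Sdhd averaged 4611 ± 1144 on day 5 and 7769 ± 1213 in control (SD, n = 4 and 5) and fell 1.69-fold (log2 change of -0.76 with SE 0.19, adjusted p = 0.00532 in limma), while a second Sdhd probe set had a log2 change of 0.04. Sdhc had -0.39 ± 0.17 (limma adjusted p = 0.0808).

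Complex III carries electrons from ubiquinol to cytochrome c. The lowest change of all tested members on day 5 was that of Uqcrfs1, the Rieske iron-sulphur protein of this complex. Uqcrfs1 gave signals of 33117, 15611, 12414, 17289 and 21662 in control, 6807, 11055, 9423 and 6903 on day 5, 16031, 7181, 7931, 10731 and 17149.5 on day 20 and 10983, 5613, 24558, 12335 and 8863 on day 60. Its day 5 arrays lay under all control arrays and it fell 2.24-fold (log2 change of -1.17 with SE 0.35, adjusted p = 0.0159 in limma). The core protein Uqcrc2 fell 1.82-fold and the small subunits Uqcr11, Uqcr10 and Uqcrh 1.92-fold, 1.70-fold and 1.59-fold (limma adjusted p = 0.00845, 0.00912, 0.0237 and 0.0312). The call of Uqcr10 ended without control A, day 5 C or day 5 E (limma adjusted p = 0.0705, 0.0775 and 0.0608), and with the Actb ratio as a covariate (0.0575). Uqcrb, a small subunit near the ubiquinone site and the member of highest signal in the complex, overlapped between the groups. Uqcrb gave signals of 136348, 136691, 84089, 124926 and 145085 in control, 86470.0, 93222, 105149 and 110752 on day 5, 114907, 101438, 115569, 109529.8 and 138190.2 on day 20 and 137868, 154574, 176339, 115352 and 95695 on day 60. Control C was far below the other control arrays in Uqcrb, and the log2 change on day 5 was -0.32 ± 0.18 (limma adjusted p = 0.165). Uqcrc1 (-0.58, limma adjusted p = 0.0544) and Uqcrq (-0.51, limma adjusted p = 0.106) did not pass on day 5.

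By the probe sets used, complex IV, cytochrome c oxidase, had the median change nearest to 0. Second probe sets fell further on day 5 in Cox8a (-0.96, against -0.16 for the set used), Cox6c (-0.53, against -0.26), Cox7a2 (-0.52, against -0.29) and Cox8c (-0.48, against 0.01). A second set fell less in Cox6b1 (-0.30, against -0.52) and was higher in Cox6a1 (0.28, against -0.14). In Cox5b the other sets ran from -0.485 to 0.271, against -0.457 for the set used. The lowest member of complex IV on day 5 was Cox4i1, the common isoform of its subunit. Cox4i1 gave signals of 44161, 28997, 22046, 28077 and 39388 in control, 21715, 24018, 21466 and 20153 on day 5, 24637, 20201, 20254, 22368 and 27633 on day 20 and 25069.9, 22535, 33079, 25568 and 21284 on day 60. All but 1 of the day 5 arrays lay under the lowest control array, control C, and Cox4i1 fell 1.45-fold (log2 change of -0.53 with SE 0.17, adjusted p = 0.0242 in limma). Cox6b1, a subunit facing the intermembrane space, also fell. Cox6b1 gave signals of 65482, 57882, 39322, 54499 and 58088 in control, 34367, 40727, 38286 and 38312 on day 5, 40968, 31898, 35759, 45774 and 49277 on day 20 and 52658, 46060.5, 63021, 46989 and 34712 on day 60. Day 5 C lay above control C and the other day 5 arrays below all controls, and the fall was 1.43-fold (log2 change of -0.52 with SE 0.17, adjusted p = 0.0236 in limma). Without control A neither passed (limma adjusted p = 0.0721 for Cox4i1 and 0.0627 for Cox6b1), and without day 5 B the values were 0.0504 and 0.0678. The Actb covariate also ended the call of Cox6b1 (limma adjusted p = 0.0608). Cox5a had the highest signal of the complex and did not pass. Cox5a gave signals of 109566, 112985, 73376, 92614 and 99321 in control, 73997, 70253, 73078 and 69473 on day 5, 89558, 67447, 69953, 83618 and 102544 on day 20 and 97724, 71155, 133732, 87444 and 67353 on day 60. Its log2 change on day 5 was -0.43 ± 0.18 (limma adjusted p = 0.0726). The other 9 tested members of complex IV lay between -0.46 (Cox5b) and 0.01 (Cox8c) on day 5.

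Complex V, the ATP synthase, has a catalytic head and stalk in the matrix, a ring in the membrane and a peripheral stalk that holds the head still. Atp5e, the small epsilon subunit of the central stalk, had the lowest change on day 5. Atp5e gave signals of 12149, 7479, 5551, 8400.5 and 9553 in control, 3116, 6280.0, 5094 and 4818 on day 5, 6692, 4698, 4571, 6671 and 7227 on day 20 and 8818, 5351, 10589, 8072 and 5790.1 on day 60. The groups overlapped between day 5 C and control C, and Atp5e fell 1.77-fold (log2 change of -0.82 with SE 0.24, adjusted p = 0.0132 in limma), although the adjusted p was 0.0633 without day 5 B. The head subunit Atp5a1 averaged 20919 ± 1339.5 on day 5 and 35344 ± 7678 in control (SD, n = 4 and 5), with no overlap, and fell 1.66-fold (log2 change of -0.73 with SE 0.17, adjusted p = 0.00287 in limma). Its catalytic partner Atp5b had -0.38 ± 0.25 (limma adjusted p = 0.266). Atp5pb, the b subunit of the peripheral stalk, had the highest signal of the complex. Atp5pb gave signals of 89201, 89301, 64843, 79904 and 81559 in control, 60256, 56589, 56064 and 55794 on day 5, 78745, 52284, 60489, 70083 and 80069 on day 20 and 74557, 47164, 96202, 68835 and 57933 on day 60. It fell 1.41-fold on day 5 with no overlap (log2 change of -0.49 with SE 0.17, adjusted p = 0.0326 in limma), and this call ended on leaving out any of 8 single arrays (limma adjusted p at most 0.0709). Atp5l and Atp5k, small membrane subunits where ATP synthase dimers meet, fell 1.63-fold and 1.47-fold, and Atp5d 1.32-fold (limma adjusted p = 0.0106, 0.0151 and 0.0309).

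The ring of ATP synthase is made from 3 genes, Atp5g1, Atp5g2 and Atp5g3, which encode the same mature protein. Atp5g1 gave signals of 7364, 7418, 4025, 6161 and 5430.3 in control, 3514, 4588, 5243 and 4631 on day 5, 6581, 3388, 3663, 5564 and 6729 on day 20 and 3813, 2594, 10277, 5153 and 4069 on day 60. Atp5g2 gave signals of 7616, 8434, 6165, 6252 and 7951 in control, 6733, 5982, 5904 and 5469.9 on day 5, 6915, 5409.5, 6464, 7839 and 6809.6 on day 20 and 6163, 5547, 8155, 6325 and 6249 on day 60. Atp5g3 gave signals of 77749, 64078, 45616, 61692 and 61548 in control, 46144, 45731, 49696 and 50737 on day 5, 60326, 41699.9, 48747, 48190.2 and 77121 on day 20 and 63687, 60305, 82542, 59969.6 and 46408 on day 60. The day 5 and control arrays overlapped in all 3 genes. Their log2 changes on day 5 were -0.41 ± 0.30, -0.26 ± 0.14 and -0.35 ± 0.18 (SE), and none passed (limma adjusted p = 0.313, 0.14 and 0.142).

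The promoters of members are shown because NRF1, GABPA, the oestrogen-related receptors (ERR) and YY1 are transcription factors known for binding near genes of this chain. RefSeq promoter entries, each of 250 bases before and 50 after a gene's start in GRCm38.p6, matched 64 of the 78 members with 69 entries. The letters of 12 motifs were searched on both strands, and the 4 given here were chosen after their shares were seen. The NRF1 letters GCGCATGC stood in 9 of the 69 entries (13.0%, against 2.71% of all 32851 entries), and 3 of the 9 members fell on day 5. In all, 32 of 75 tested members did (42.7%). The ETS letters CCGGAAG, which GABPA can bind, stood in 17 (24.6%, against 8.86%), and 10 of the 17 members fell on day 5. The ERR letters AAGGTCA stood in 8 (11.6%, against 4.72%) and the YY1 letters GCCATCTT in 9 (13.0%, against 2.75%), of which 4 and 4 members fell on day 5. Among the other strings, the HIF letters ACGTG stood in 24.6% (against 19.6%), the box CCAAT in 40.6% (against 37.4%), the GC box GGGCGG in 42.0% (against 35.7%) and TATAAA in 11.6% (against 13.6%). The last 4 strings overlap those named first: TGCGCATG for NRF1 (11.6%, against 2.12%), CGGAAG for ETS factors (43.5%, against 16.9%), TCAAGGTCA for ERR (2.9%, against 0.423%) and a longer YY1 string (5.8%, against 0.852%). A match is a string of letters and not a measured site.

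The 250 bases before the start of 4 members that hold at least 1 of the first 4 strings are printed with matches to the first 4 strings (NRF1, ETS, ERR and YY1) in capitals and all other letters in lower case. Atp5k, Atp5l and Sdhd fell on day 5, and Sdhb is the member of complex II with the highest signal. Atp5k (chr5:108434400-108434649, reverse strand) has NRF1 letters on both strands around 50 bases before the start. Atp5l (chr9:44920743-44920992, reverse strand) has NRF1, ETS and ERR letters, each as the reverse complement, 240, 212 and 13 bases before the start. Sdhb (chr4:140961021-140961270, forward strand) has the NRF1 letters 54 bases before it, and Sdhd (chr9:50603850-50604099, reverse strand) the ETS letters 46 bases before it. In the counts over whole entries, Atp5k and Sdhb also hold ETS letters, and Atp5k and Sdhd also hold ERR letters. Those matches are not within the printed bases.
Atp5k: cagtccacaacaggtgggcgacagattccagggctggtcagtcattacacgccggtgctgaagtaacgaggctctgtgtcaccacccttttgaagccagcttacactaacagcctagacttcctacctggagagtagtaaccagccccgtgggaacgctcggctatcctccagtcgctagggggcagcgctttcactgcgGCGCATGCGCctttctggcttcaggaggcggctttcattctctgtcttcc
Atp5l: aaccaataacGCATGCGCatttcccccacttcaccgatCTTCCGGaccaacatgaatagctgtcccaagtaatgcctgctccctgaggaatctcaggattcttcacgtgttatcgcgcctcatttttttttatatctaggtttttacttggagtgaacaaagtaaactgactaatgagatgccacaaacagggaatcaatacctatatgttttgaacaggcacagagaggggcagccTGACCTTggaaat
Sdhb: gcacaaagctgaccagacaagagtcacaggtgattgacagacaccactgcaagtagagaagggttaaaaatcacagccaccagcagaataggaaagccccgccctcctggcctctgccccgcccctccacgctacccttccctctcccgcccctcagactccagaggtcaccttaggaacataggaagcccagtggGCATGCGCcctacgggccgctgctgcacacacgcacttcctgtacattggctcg
Sdhd: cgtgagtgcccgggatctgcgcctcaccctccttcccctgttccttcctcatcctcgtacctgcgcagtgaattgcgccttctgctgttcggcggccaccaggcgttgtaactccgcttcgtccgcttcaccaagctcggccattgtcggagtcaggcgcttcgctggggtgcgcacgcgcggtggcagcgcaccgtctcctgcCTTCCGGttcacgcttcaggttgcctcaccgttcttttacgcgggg

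On day 20 fewer subunits were called. Of the 75 tested members 15 fell against control (20.0%, against 14.5% of all tested genes), and 59 did not pass. The other member was Ndufa4l2, higher as on day 5 and again a description (15.6% of all tested genes were higher). The median log2 change was -0.37, against -0.06 over all genes. Complex I had 6 of 34 (median -0.42), complex II 2 of 4 (-0.51), complex III 1 of 8 (-0.47), complex IV 2 of 12 (-0.21) and complex V 4 of 17 (-0.25). Day 5 and day 20 share the control arrays: 14 members were called on both days (43.8% of the day 5 calls and 93.3% of the day 20 calls), and Uqcrc1, a core protein of complex III, was called on day 20 only (log2 change of -0.73 with SE 0.21, adjusted p = 0.0146 in limma). Without control A, control E or day 20 B the count that fell was 7, 9 and 6, and without day 60 C it was 23. Without day 20 B the members thus fell in a smaller share than all tested genes (6 of 75, against 10.65%). With the Actb ratio as a covariate the count was 6, and with the array titled day 5 A as a control it was 0. The share of all tested genes that fell ran between 10.65% and 15.96% with arrays left out singly. Over the other alternatives it ran between 7.61% and 16.63%.

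Among the named members on day 20, Sdha averaged 11289 ± 3652 on day 20 and 21927 ± 7667 in control (SD, n = 5 each) and fell 1.92-fold (log2 change of -0.94 with SE 0.27, adjusted p = 0.0136 in limma). This was the lowest change of any member on that day, and its arrays overlapped control at day 20 E. Ndufa5 fell 1.75-fold (log2 change of -0.81 with SE 0.23, adjusted p = 0.0136 in limma), with arrays B and C far below control and array E at the level of the lowest controls. The day 20 calls of Sdha and Ndufa5 ended with the Actb covariate and with the array titled day 5 A as a control. The core subunit Ndufv1 fell 1.58-fold and was the single member whose 5 day 20 arrays all lay under all control arrays (log2 change of -0.66 with SE 0.20, adjusted p = 0.0175 in limma). This separation was not counted over all tested genes and is a description. Atp5a1 fell by a log2 change of -0.58 (limma adjusted p = 0.0104) and the membrane anchor Sdhd 1.57-fold (limma adjusted p = 0.0116). Cox4i1 had -0.46 ± 0.17 (limma adjusted p = 0.0397) and Cox6b1 -0.43 ± 0.16 (limma adjusted p = 0.0482), and both calls ended on leaving out single arrays (5 arrays for Cox4i1, up to limma adjusted p = 0.126, and 13 for Cox6b1, up to 0.139). Uqcrfs1 (-0.76, limma adjusted p = 0.0934) and Atp5e (-0.50, limma adjusted p = 0.105), the lowest of their complexes on day 5, did not pass on day 20.

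**Figure D3:**
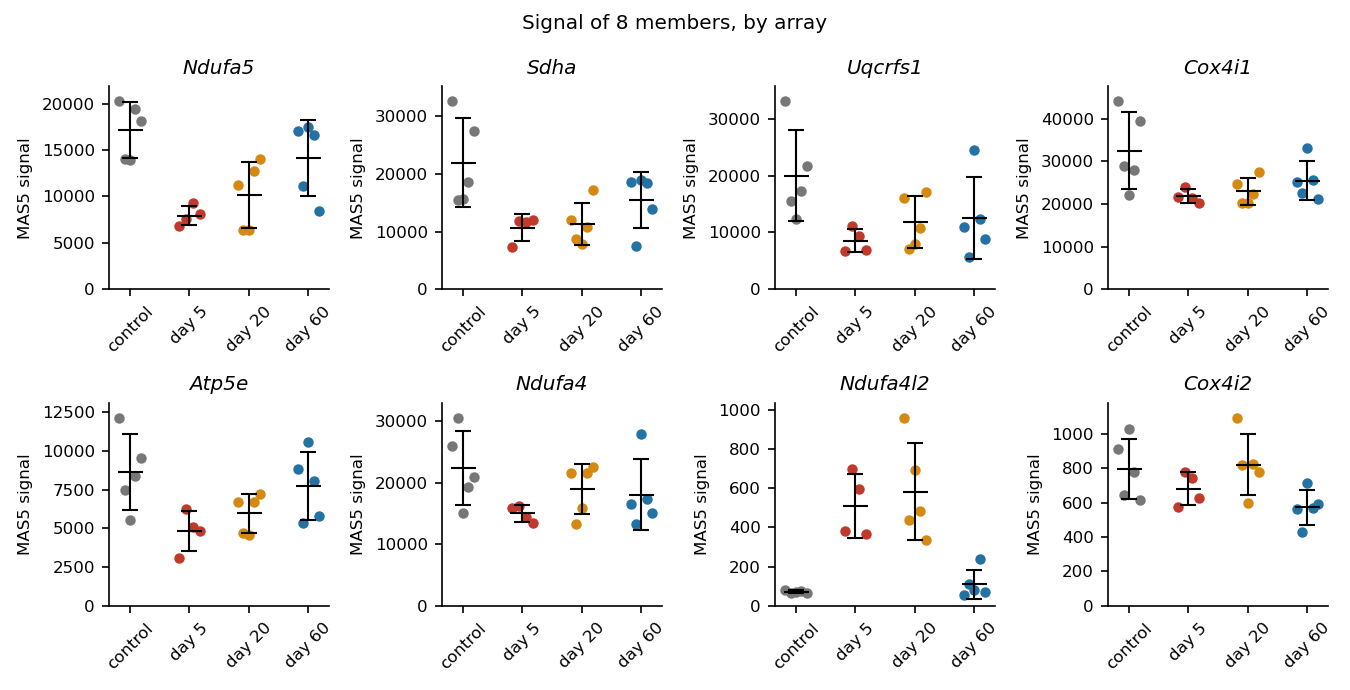
MAS5 signal of 8 members on each array (linear axes from 0), with bars for the group mean and SD. Ndufa5, Sdha and Uqcrfs1 had every day 5 array below every control array, Ndufa4l2 had every day 5 and day 20 array above every control array, and Cox4i2 overlapped throughout.

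On day 60 no member passed in either direction in limma's fit (0.765% of all tested genes fell and 0.368% rose). At an unadjusted p under 0.05, 14 of the 75 members were lower and 0 higher, against 7.5% and 8.36% of all tested genes. The median log2 change was -0.26, against 0.01 over all genes, and 68 of the 75 values were below 0. Arrays of day 60 were spread widely: averaged over all members, day 60 C lay at 0.28 above the control mean and day 60 B at -0.62. Without day 60 C, 6 members fell, and without control B, 1 did. Uqcrfs1 had the lowest change of day 60 at -0.77 ± 0.34 (limma adjusted p = 0.266), and the catalytic subunit Atp5b stood at -0.62 ± 0.24 (limma adjusted p = 0.202).

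Between the vector days few members passed. Day 20 against day 5 gave no call in limma's fit (2.25% of all genes lower and 3.05% higher), and at an unadjusted p under 0.05 also 0 lower and 0 higher (9.59% and 10.3% of all genes). The median log2 change was 0.15, against 0.01 over all genes, and 66 of 75 values were above 0. The largest of these differences was that of Uqcr10, a small subunit of complex III. Uqcr10 gave signals of 11099, 5534, 5443, 6061 and 7339 in control, 5122, 3238, 4221 and 3596 on day 5, 7363, 3988, 5605, 4478 and 6537 on day 20 and 6080.1, 5334, 8044, 6419 and 3191 on day 60. Its log2 change of day 20 against day 5 was 0.44 ± 0.25 (limma adjusted p = 0.343), and the arrays overlapped.

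Day 60 against day 5 gave 7 members higher (12.2% of all genes) and 1, Ndufa4l2, lower as a description (12.2% of all genes). Those higher were 6 subunits of complex I and Atp5a1. Ndufa5 was 1.71-fold higher (log2 change of 0.78 with SE 0.25, adjusted p = 0.0287 in limma), Ndufs7 1.65-fold and Ndufb3 1.62-fold higher. Ndufb7, Ndufa2, Atp5a1 and Ndufb11 were 1.49-fold, 1.46-fold, 1.45-fold and 1.36-fold higher. In Ndufb3, Ndufb7, Ndufb11 and Atp5a1 all 5 day 60 arrays lay above all 4 day 5 arrays, a separation not counted over all tested genes. The calls of Ndufa5 and Ndufb11 each ended on leaving out any of 6 single arrays. The count of changed members ran from 2 (without day 5 B, and without day 60 C) to 14 (without day 60 B) when single arrays were left out, and the omission of day 5 C, day 5 E, day 60 A, day 60 D and day 60 E gave 4, 5, 3, 4 and 13. With the Actb ratio as a covariate it was 1, and with the array titled day 5 A counted as day 5 it was 12. These counts include Ndufa4l2, and the 1 under the covariate was Ndufa4l2 alone. Day 60 against day 20 gave Ndufa2 (0.54, limma adjusted p = 0.0219) and Ndufb7 (0.49, limma adjusted p = 0.0277) higher (11% of all genes). Ndufa4l2 was lower, again as a description (11.2% of all genes were lower). No member was higher without day 20 B, day 20 C, day 60 A or day 60 D.

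As a description only, Ndufa4l2 was the single member called higher on day 5 and day 20. It is the paralogue of Ndufa4 and is known as a target of hypoxia-inducible factors that lowers electron flow through the chain. Ndufa4l2 gave signals of 83.3, 66.2, 69.5, 75.7 and 64.8 in control, 382, 700.0, 596 and 366 on day 5, 960.3, 437, 692, 482 and 337 on day 20 and 55.1, 111, 81.1, 238 and 70.4 on day 60. Every day 5 and day 20 array lay above the control arrays, while 3 of the 5 day 60 arrays lay within the control range of 64.8 to 83.3 or below it. Log2 changes on the log2(signal + 100) scale were 1.79 on day 5, 1.92 on day 20 and 0.24 on day 60. Their size follows the added constant, since the control signals were low and may lie at background: over the alternatives the change ran between 0.81 and 2.76 on day 5. The gene passed the minimum signal through its day 5 and day 20 arrays, so that passing already required a difference, and its values are given with no test. The unassigned array titled day 5 A gave 584.

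Ndufa4 itself went the other way in sign. Ndufa4 gave signals of 25939, 30632, 15164, 19267 and 20907 in control, 15986, 16298, 14467 and 13449.6 on day 5, 21534, 13373, 15951, 21641 and 22669 on day 20 and 16578, 13350.4, 28027, 17464 and 15049 on day 60. Its log2 change on day 5 was -0.53 ± 0.22 (limma adjusted p = 0.0647). The change of Ndufa4l2 exceeded that of Ndufa4 by 2.32 on the log2 scale on day 5, 2.14 on day 20 and 0.55 on day 60, a difference that ran between 1.33 and 3.30 on day 5 and 1.11 and 3.13 on day 20 over the alternatives and that was not tested.

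The other paralogue sets of cytochrome oxidase are given by their values, and their differences were not tested. Cox4i2, the lung isoform of Cox4i1 and also a gene known for its response to low oxygen, had overlapping groups. Cox4i2 gave signals of 911, 642, 1027, 779 and 616 in control, 577, 779.5, 741 and 624 on day 5, 1094, 817, 596, 822 and 775 on day 20 and 564, 427, 714, 566 and 594 on day 60. Its log2 changes were -0.18 ± 0.18 (limma adjusted p = 0.447) on day 5, 0.04 ± 0.17 (limma adjusted p = 0.878) on day 20 and -0.40 ± 0.17 (limma adjusted p = 0.231) on day 60. Cox6b2, a testis isoform of Cox6b1, was below the minimum signal. Cox6b2 gave signals of 425, 286, 234, 162 and 112 in control, 235, 206, 182 and 345 on day 5, 594, 420.3, 349, 257 and 286 on day 20 and 268, 504, 204, 202 and 266 on day 60. Cox8a, the common isoform of its subunit, is paired with Cox8c, a testis isoform. Cox8a gave signals of 6862, 5719, 5586, 5379 and 5971 in control, 5163, 6239, 4610.1 and 5132 on day 5, 4939, 4924, 5825, 4919 and 4520.0 on day 20 and 3937, 6694, 5604, 5107 and 4371 on day 60. Cox8c gave signals of 5208, 2698, 4013, 5325 and 3580.0 in control, 4678, 3039.6, 4489 and 4285 on day 5, 4461, 3619, 4343, 4139 and 4599 on day 20 and 3649.9, 2569, 6133, 4055 and 5493 on day 60. Neither passed on any day. Cox7a2 and Cox7a2l, of which Cox7a2l joins complexes III and IV into supercomplexes, also overlapped. Cox7a2 gave signals of 65013, 62261, 35993, 48247 and 57321 in control, 37495, 48018, 44247 and 43399.6 on day 5, 48996, 38401, 43291, 45099.9 and 56337 on day 20 and 44358, 46195, 66258, 46529.9 and 36757 on day 60. Cox7a2l gave signals of 18019.7, 12432, 12544, 11331 and 14763 in control, 13687, 9996, 12119.5 and 13668 on day 5, 12995, 11522, 12074, 11908 and 14845 on day 20 and 12646, 15695, 14328, 14789 and 14677 on day 60. Their log2 changes on day 5 were -0.29 ± 0.18 (limma adjusted p = 0.226) and -0.15 ± 0.14 (limma adjusted p = 0.421).

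The 3 striated muscle isoforms that were kept apart from the members fell further than any member on day 5. Cox6a2 is the isoform of heart and skeletal muscle. Cox6a2 gave signals of 22455, 20197, 18162, 23880.0 and 16865 in control, 987, 4977, 8075 and 8182 on day 5, 17405, 4986, 7066, 16935 and 22043 on day 20 and 15527, 1071, 31861, 15229 and 11108 on day 60. Cox7a1 and Cox8b are found in muscle and in brown fat. Cox7a1 gave signals of 6818, 2559, 2698, 3585 and 3430.3 in control, 318, 1450.0, 1508 and 1098 on day 5, 2614, 924, 816, 2411 and 3369.9 on day 20 and 2714, 307, 5234, 2807 and 1586 on day 60. Cox8b gave signals of 23061, 11222, 9274, 12057 and 14525 in control, 1698, 4561, 6654 and 4239.7 on day 5, 9253, 2419.6, 4261, 9871 and 10567 on day 20 and 9043, 980.1, 17683, 10845 and 6629.9 on day 60. In the 3 genes no day 5 array reached the control range, and array B was the lowest on day 5 and on day 60. The log2 changes on day 5 were -2.20 ± 0.73 (limma adjusted p = 0.025), -1.80 ± 0.59 (limma adjusted p = 0.0241) and -1.76 ± 0.61 (limma adjusted p = 0.0325). None passed on day 20 or day 60, and without day 5 B none passed on day 5 (limma adjusted p = 0.118, 0.104 and 0.121). Without control A, Cox7a1 and Cox8b did not pass on day 5 (limma adjusted p = 0.0632 and 0.0778). Cox8b also did not pass without control E, day 5 C or day 5 E (limma adjusted p = 0.0563, 0.0525 and 0.0555). The Actb covariate also ended the day 5 calls of Cox7a1 and Cox8b (limma adjusted p = 0.0524 and 0.0589), and the array titled day 5 A as a control ended all 3.

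Each muscle isoform was set against its paralogue among the members, which gave a comparison within the same array. The paralogue of Cox6a2 is Cox6a1. Cox6a1 gave signals of 88405, 81561, 50131, 53035 and 77845 in control, 66079, 60586, 56812 and 65658 on day 5, 63724, 62489, 71364, 55969 and 63627 on day 20 and 64898, 92624, 69415, 57456 and 55302 on day 60. On day 5 the change of Cox6a2 was lower than that of Cox6a1 by a log2 difference of -2.07, that of Cox7a1 against Cox7a2 by -1.51 and that of Cox8b against Cox8a by -1.60. The arrays did not overlap in these 3 pairs (two-sided exact permutation p = 0.0159 each, the smallest that 4 against 5 arrays can give, adjusted p = 0.0476 over 9 tests). These tests were chosen after the values were seen. They use 1 probe set per gene, and a second Cox8a probe set fell further on day 5 (log2 change of -0.96, against -0.16 for the set used). On day 20 the differences were -0.65, -0.79 and -0.84 (exact permutation p = 0.27, 0.0952 and 0.143) and on day 60 -0.98, -0.74 and -0.80 (exact permutation p = 0.405, 0.302 and 0.429).

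**Figure D4:**
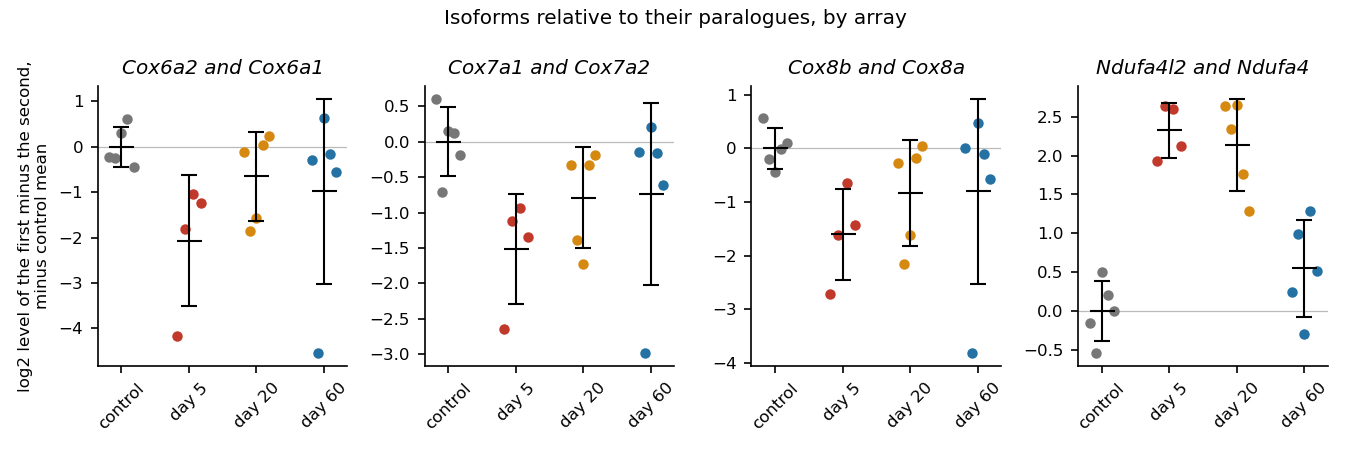
Log2 level of an isoform minus that of its paralogue on each array, relative to the mean of the control arrays, with bars for the group mean and SD. On day 5 all 4 pairs stood apart from control, by -2.07 (Cox6a2 and Cox6a1), -1.51 (Cox7a1 and Cox7a2), -1.60 (Cox8b and Cox8a) and 2.32 (Ndufa4l2 and Ndufa4), and day 60 B was the lowest point of the 3 muscle pairs.

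Genes that feed and build the chain were counted from lists that are separate from the members. Of 17 tested tricarboxylic acid cycle and pyruvate dehydrogenase genes 11 fell on day 5 and 9 on day 20, with medians of -0.85 and -0.62. Pdhb, a subunit of pyruvate dehydrogenase, had -1.10 ± 0.21 on day 5 (limma adjusted p = 0.000561), and Cs, citrate synthase, -0.99 ± 0.19 (limma adjusted p = 0.000481). Of 15 fatty acid oxidation genes 11 fell on day 5 and 12 on day 20 (medians -0.96 and -0.82). Hadh, a dehydrogenase of this pathway, had -1.35 ± 0.18 on day 5 (limma adjusted p = 1.49e-05). Of 7 electron carriers 5 fell on day 5 and 4 on day 20 (medians -0.74 and -0.72), among them Cyc1, a cytochrome subunit of complex III that the symbols chosen for members do not match, with -0.67 ± 0.24 on day 5 (limma adjusted p = 0.0415). Of 8 ubiquinone synthesis genes 5 fell on day 5 and 6 on day 20 (medians -0.71 and -0.68), with Coq9 at -1.23 ± 0.35 on day 5 (limma adjusted p = 0.01). The shares of all genes that fell were 17.5% on day 5 and 14.5% on day 20.

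Further lists are set against the shares of all tested genes, 17.5% lower and 16.8% higher on day 5 and 14.5% lower and 15.6% higher on day 20. Of 39 assembly factors 7 fell on day 5 (17.9%), and 7 fell (17.9%) and 1 rose on day 20 (medians -0.20 and -0.16). Acad9, an assembly factor of complex I, had -0.79 ± 0.23 on day 5 (limma adjusted p = 0.0138). Of 76 mitochondrial ribosomal protein genes 5 fell (6.58%) and 3 rose on day 5, and 18 fell (23.7%) on day 20 (medians -0.12 and -0.21). Of 19 import genes 4 fell on day 5 (21.1%) and 5 on day 20 (26.3%). Of 13 genes of ATP export and the mitochondrial membranes 6 fell (46.2%) and 1 rose on day 5, and 6 fell on day 20. Mfn2, which fuses mitochondria, had -1.88 ± 0.34 on day 5 (limma adjusted p = 0.000261), and Slc25a5, an ADP/ATP carrier, rose (0.75 ± 0.27, limma adjusted p = 0.041). Of 13 glycolysis genes 5 fell (38.5%) and 2 rose on day 5, and 3 fell and 2 rose on day 20, with the muscle phosphofructokinase Pfkm at -1.81 ± 0.48 and the platelet form Pfkp at 1.06 ± 0.21 on day 5 (limma adjusted p = 0.00623 and 0.000598).

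Of 18 regulators of mitochondrial gene expression 7 fell (38.9%, against 17.5% of all genes) and 2 rose (11.1%, against 16.8%) on day 5, and 5 fell (27.8%, against 14.5%) and 2 rose (11.1%, against 15.6%) on day 20. Perm1, a muscle regulator of this programme, had -1.58 ± 0.35 on day 5 (limma adjusted p = 0.00162). The coactivator Ppargc1a had -1.32 ± 0.40 on day 5 (limma adjusted p = 0.0163) and -1.08 ± 0.38 on day 20 (limma adjusted p = 0.0386). Esrrg, a receptor of the ERR class, had -1.25 ± 0.44 on day 5 (limma adjusted p = 0.0347). Gabpb1, the partner of GABPA, rose on both days (0.50 ± 0.14 and 0.52 ± 0.13, limma adjusted p = 0.00874 and 0.00528).

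Marker lists of the cell types that flank tissue can hold were counted against the same shares of all genes (17.5% lower and 16.8% higher on day 5, 14.5% and 15.6% on day 20). Of 22 skeletal muscle markers 10 fell on day 5 (45.5%) and 3 on day 20 (13.6%, no more than the share of all genes), and their summed signal, in units of 1000, was 1073 to 1732 in control, 298 to 1074 on day 5, 559 to 1368 on day 20 and 268 to 2123 on day 60. Of 7 tested brown and beige fat markers, a list that shares Ppargc1a with the regulators and Cpt1b with fatty acid oxidation, 3 fell on day 5 and 4 on day 20, and their summed signal was 14.7 to 97.8 in control, 4.31 to 13.6 on day 5, 6.66 to 22 on day 20 and 6.87 to 35.4 on day 60. Control A alone had a high signal of Ucp1, the uncoupling protein of brown fat, with 43788 against 59.9 to 1720.5 in the other control arrays. Of 12 white fat markers 9 fell on each of day 5 and day 20, with sums of 249.8 to 533 in control, 176 to 191 on day 5 and 172 to 218 on day 20. Endothelial markers rose in 9 of 10 on day 5 and 10 of 10 on day 20, with sums of 13.2 to 20.8 in control, 57.0 to 69.3 on day 5 and 45.8 to 72.7 on day 20. Of 10 pericyte and smooth muscle markers 7 rose on day 5 and 10 on day 20, with sums of 86.1 to 110.5 in control, 163.0 to 218 on day 5 and 309 to 381 on day 20. Of 10 macrophage markers 8 rose on day 5 and 3 on day 20, with sums of 51.7 to 121 in control, 222 to 304.5 on day 5 and 93.5 to 212 on day 20. Fibroblast markers rose in 5 of 8 and fell in 2 on day 5, and epidermal markers gave 0 calls of 8 on day 5. On day 20 fibroblast markers rose in 5 and fell in 1, and 2 epidermal markers and 1 macrophage marker fell. On day 60 the sole calls on these lists were 3 of 12 white fat markers that fell (25%, against 0.765% of all tested genes). No marker was at 0 on any assigned array, and the part of these cell types in the changes of the members was not tested.

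**Figure D5:**
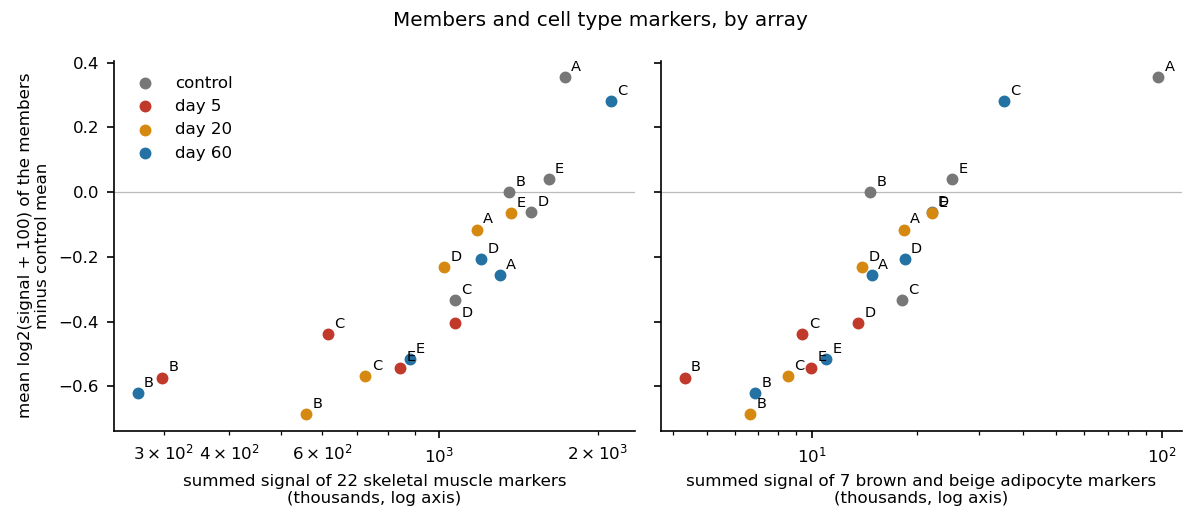
Mean log2(signal + 100) of the 75 tested members on each array, minus the control mean, against the summed signal (in units of 1000, log axis) of 22 skeletal muscle markers and of 7 brown and beige adipocyte markers, with letters for arrays. Control A and day 60 C were highest on both axes, and day 5 B and day 60 B had the lowest muscle sums (298 and 268).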

How the data were processed

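RNA of flank tissue was read on 20 Affymetrix Mouse Genome 430 2.0 arrays. The deposited values are intensity values, 1 MAS5 signal per probe set on a linear scale for 45101 probe sets, background-corrected and scaled to 1500 per the labels, in GCOS 1.3 per the submitters' processing notes. The number of arrays limits the precision. Genes were named from the 34958 probe sets with 1 gene symbol, matched to RefSeq by gene identifier for 34754, and 932 with several symbols and 9211 with none were left out.

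Each gene was read by its probe set of highest mean over the 19 assigned arrays, and 13595 of 18194 genes with a mean signal of at least 300 were tested on log2(signal + 100), computed from the deposited intensities. A limma 3.58.1 fit in R 4.3.3 (lmFit of 4 group means, eBayes with a trend, two-sided) gave p-values adjusted over all tested genes by Benjamini-Hochberg, called under 0.05, and was tested on simulated data. Folds are powers of 2 of these changes. Differences between muscle isoforms and their paralogues were tested by exact permutation over arrays, leaving out Ndufa4l2, which passed the minimum signal only through its high groups (scipy 1.17.1). Motifs were counted in RefSeq promoters of GRCm38.p6.

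The members, lists and tests were chosen with earlier results of these data known. Values on every array are given for the member of highest signal and of lowest day 5 change in each complex, members called higher, the member most changed between days, the muscle isoforms and paralogue sets. Other members, the core subunit group, Cox6a1 and the printed promoters were chosen after values were seen. Same letters in the titles were not treated as pairs in the main fit. Of 27 same-letter pairs of different groups 11 correlated above 0.1 in their deviations from the group mean (-0.275 to 0.348). Arrays of different letters were not compared in this way, so pairing by letter was not excluded. Alternatives covered the pseudocount, minimum signal, normalization, eBayes trend, groups in the fit, choice of probe set, symbols, letter as a block, placing of the unassigned array, the Actb ratio and the omission of arrays. A joint omission of control A, day 60 B and day 60 C was added after seeing the data.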

Additional observations from a re-analysis of the deposited data

Results flagged for a closer look

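Among 128 sets of 4 or 5 arrays examined (each a gene given on every array, within a group), 3 held an array that stood far from the others by Dixon's test, and chance gives about 1 in 20. Sdha on day 5 had 7322 on array B, against 11724 to 11986 on the others. Uqcrb in control had 84089 on array C, against 124926 to 145085 on the others. Cox6b2 on day 60 had 503.5 on array B, against 202 to 268 on the others. In data outside the comparisons, the array titled day 5 A but labelled as a day 0 control gave 583.7 for Ndufa4l2, above the highest control array (83.3).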

How the results depend on the processing

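With arrays left out singly, members that fell against control numbered 20 to 42 (day 5), 6 to 23 (day 20) and 0 to 6 (day 60). The shares of all tested genes that fell ran from 13.73% to 18.82%, 10.65% to 15.96% and 0.125% to 1.964%. Members changed numbered 0 to 0 for day 20 against day 5, 2 to 14 for day 60 against day 5 and 1 to 4 for day 60 against day 20. With the array titled day 5 A as a control the counts that fell were 10 (day 5) and 0 (day 20), with 2 and 1 changed for day 60 against day 5 and day 20. With it as day 5 they were 38 and 17, with 12 and 3 changed. With the Actb ratio as a covariate they were 27 on day 5 and 6 on day 20, and 1 and 1 for day 60 against day 5 and day 20. Members changed between day 60 and the earlier vector days include Ndufa4l2, a description, wherever it was tested. Every count of 1 changed member was Ndufa4l2 alone. Day 60 against day 5 gave 4 with the mean of all probe sets, and without control A, day 60 B and day 60 C together (chosen after seeing the data) 4, with 1 against day 20. With the letter as a replicate block the counts that fell were 24, 17 and 0 in time order, and the changes between days were 0, 7 and 3. A second probe set had the opposite sign in 6 of 44 members on day 5. The median change of members on day 5 stayed between -0.52 and -0.41 over the 15 alternatives that left no single array out. Single genes were followed only for 22 calls of genes given on every array, the muscle isoforms and Ndufa4l2 included. None of these calls reversed, and 112 of their 744 values over all alternatives no longer passed. The calls of Ndufa4l2, a description, passed wherever it was tested. Other called members were not followed singly. The cause of these moves was not tested. Probe set positions were not analysed here.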

Other observations

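The array titled day 5 A but labelled as a day 0 control had a mean of -0.50 from the control mean over all tested members on the log2 scale, with -0.53 in complex I, -0.82 in complex II, -0.73 in complex III, -0.17 in complex IV and -0.49 in complex V. The day 5 arrays lay between -0.57 and -0.40 over all tested members, and the control arrays between -0.33 and 0.36. Its main Vegfa probe set gave 11111, against a highest control value of 467, and its summed skeletal muscle markers gave 441 in units of 1000, against at least 1073 in control.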
